A study of Mus musculus with 6 samples.

Results

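The genes of motile cilia were followed in whole lungs of E18.5 mouse embryos, near the end of gestation, by Affymetrix Mouse430_2 expression arrays. The list names 39 genes, and each was looked up among the probe sets whose annotation names exactly 1 gene, by current symbol or synonym. A total of 38 of the 39 were measured, out of 18193 genes with a probe set of their own. Mcidas, which starts the multiciliated cell programme, was not measured here. The series compares 3 arrays labelled wild type (WT 1 to WT 3) with 3 arrays labelled GATA6 KO (KO 1 to KO 3), to ask what the zinc finger transcription factor GATA6 does in the lung. The labels give no allele, no deleting driver, no strain and no sex, and do not say whether an array holds 1 embryo. P-values therefore measure only the spread between these arrays, which may be technical. Gene levels are log2(intensity + 16) of each gene's brightest probe set by its mean across arrays. The lowest level that any probe set read on any array was 4.17.

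Motile cilia are beating, hair-like extensions that clear mucus from the conducting airways and are carried by multiciliated cells. Their core, the axoneme, is a ring of doublet microtubules around a central pair. Dynein arms on the doublets drive the beat, and radial spokes and the central pair control it. The programme is switched on by Mcidas and Myb, and then by the transcription factors Foxj1 and RFX2 and RFX3. RFX factors bind a palindromic DNA element, the X-box, upstream of many cilia genes.

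The level of the targeted gene did not check the labels. Gata6 read 11.12, 10.26 and 10.42 log2 in WT 1 to WT 3 and 11.58, 11.39 and 11.19 in KO 1 to KO 3, higher in all 3 arrays labelled KO. The difference was 0.79 (SE 0.24, limma adjusted p = 0.964) and 0.97 within station 2, and where the probe set lies relative to a deleted part is not known here. Directions are therefore given between arrays labelled KO and arrays labelled WT. All 10 measured markers of alveolar type I cells and all 8 of type II cells read above 6.88 log2, the median of the gene means, in at least 1 group. Fluidics station 1 handled WT 1 and WT 2, and station 2 handled WT 3 and all 3 arrays labelled KO. The WT arrays were all scanned ahead of the KO arrays, and the order of scanning cannot be told apart from the group. As a measure of RNA composition, the median of bright probe sets that name no gene minus that of bright named ones was -0.87 in WT 1, -1.19 in KO 2 and -0.66 in KO 3. In WT 2, WT 3 and KO 1 it lay between -1.98 and -1.88.

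The motile cilia genes mostly read higher in the arrays labelled KO, and the difference lay mainly against WT 1 and WT 2. Of the 38 measured members, 35 had a higher mean in the arrays labelled KO and 3 a lower one, while 58.4% of all genes read higher. The median log2 difference was 0.40 over the members and 0.003 over all genes. When genes dim by their mean over the 6 arrays were left out, all 25 members kept read higher, against 45.0% of all genes kept. None of the 38 passed an adjusted p of 0.05 in limma, where 1 of 18193 genes passed (0.00550%) and none passed as higher (0.00%). At an unadjusted p under 0.05, 5 members read higher and none lower, against 2.00% of all genes that read higher and 4.58% in either direction at that level. In 6 members all 3 arrays labelled KO lay above all 3 labelled WT, against 5.89% of all genes. In no member did they all lie below, against 3.81% of all genes. In bulk tissue, a change in the number of ciliated cells and a change in RNA per cell cannot be told apart.

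**Figure D1:**
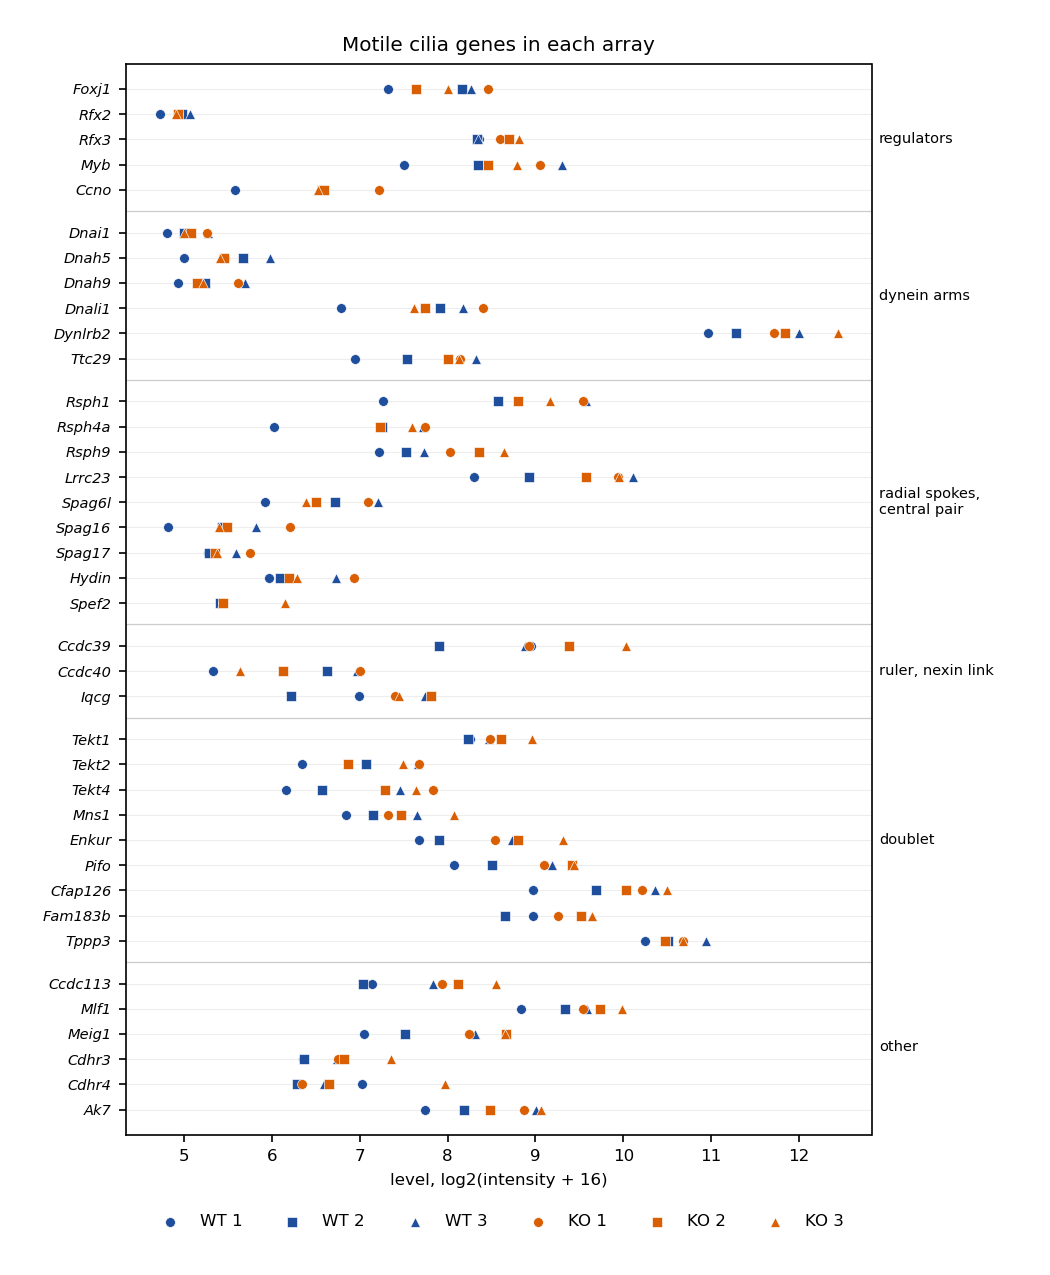
Level of each of the 38 measured motile cilia genes in each array, as log2(intensity + 16), grouped by role. Blue points are the arrays labelled WT and orange points those labelled KO; WT 1 or WT 2 is the leftmost point in every gene, while WT 3 often lies among the orange points.

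The lowest array was WT 1 in 30 of the 38 members and WT 2 in the other 8. Over all genes, WT 1 was the lowest of the 6 arrays in 25.9% and WT 2 in 9.97%. The third wild-type array read differently: WT 3 lay within the range of the arrays labelled KO in 20 members, above all of them in 11 and below all of them in 7. WT 1 lay below all 3 arrays labelled KO in 36 members (94.7%), and WT 2 in 26 (68.4%). The shares of all genes were 30.96% for WT 1 and 19.32% for WT 2. For WT 3, 18.4% of members lay below all 3 and 28.9% above, against 14.99% and 19.45% of all genes. Relative to each gene's mean over the 6 arrays, the median member deviated by -0.68 in WT 1, -0.26 in WT 2 and 0.29 in WT 3. In KO 1, KO 2 and KO 3 it deviated by 0.18, 0.03 and 0.34. The arrays labelled WT thus spread wider than those labelled KO, with a median SD of 0.52 against 0.30. The WT spread was the larger in 31 of 38 members (81.6%), and in 34.6% of all genes.

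**Figure D2:**
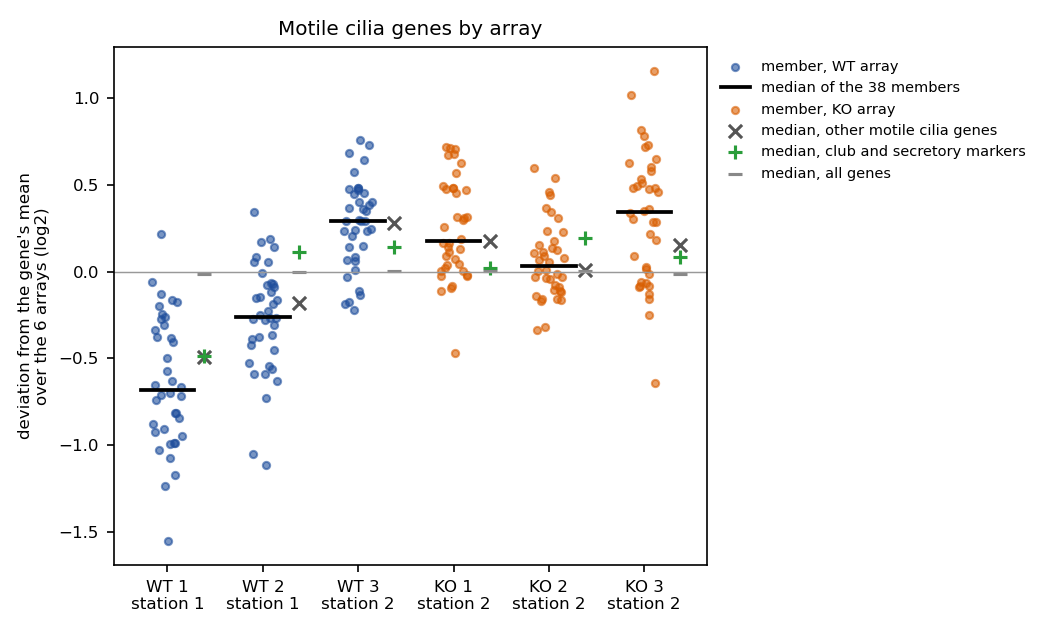
Deviation of each motile cilia gene from its own mean over the 6 arrays (log2), by array with its fluidics station; points are genes, black bars the median of the 38 members. Other symbols give the medians of the other motile cilia genes, of club and secretory markers and of all genes; the member medians run from -0.68 in WT 1 to 0.34 in KO 3, and WT 3 sits at 0.29.

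Within fluidics station 2, which holds WT 3 and the 3 arrays labelled KO, fewer members read higher, and so did fewer of all genes. There 14 of the 38 members read higher in the arrays labelled KO and 24 lower, with a median of -0.13, against 42.3% of all genes higher and a median of -0.0012. The fit with station as a block gave the same differences, because station 1 holds only arrays labelled WT. On that station a single array, WT 3, stands for the wild type, so it has no measured spread. Without WT 1, 27 of 38 members read higher and the median was 0.22. Without WT 3, all 38 read higher and the median was 0.65. Station and scan order move with these values in part. RNA composition was alike in WT 1 (-0.87) and KO 3 (-0.66), the arrays with the lowest and the highest member median. The share of station, scan order and composition in the result was not tested. With RNA composition as a covariate, all 38 read higher and the median was 0.53.

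**Figure D3:**
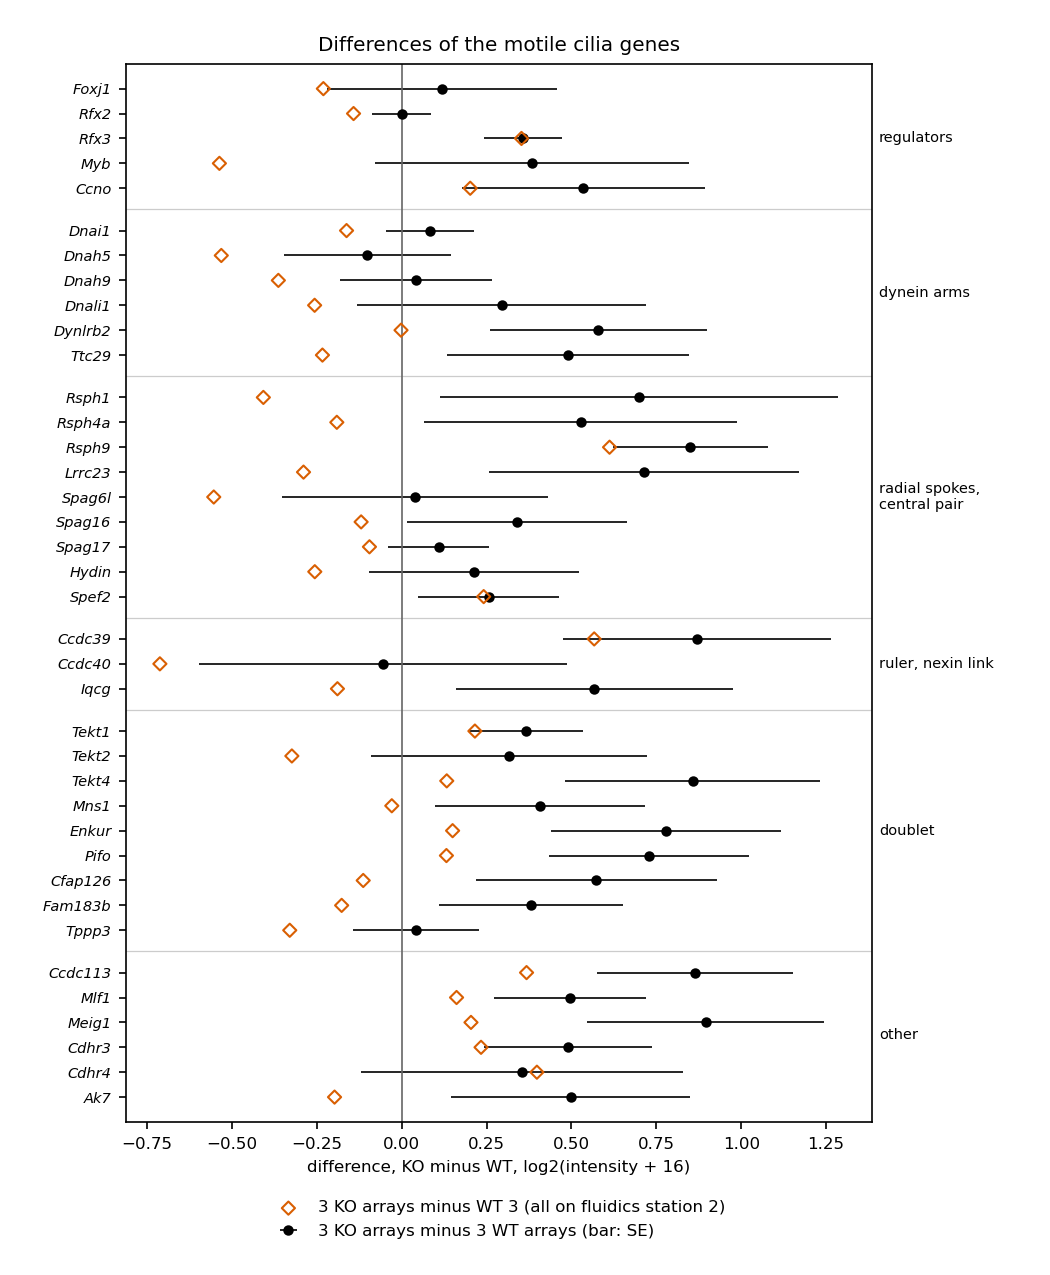
Log2 difference, arrays labelled KO minus arrays labelled WT, for each motile cilia gene, grouped by role: black points use all 6 arrays with the SE as a bar, orange diamonds the 3 KO arrays minus WT 3, all on station 2. Of the black points 35 of 38 lie above 0, of the diamonds 14.

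An RFX half-site, one arm of the X-box, was looked for upstream of the members. Of the 39 genes, 35 have a promoter in the RefSeq table (GRCm38.p6; not Foxj1, Rsph1, Rsph4a and Tppp3), and the 250 bases before each start were searched on both strands. The half-site GTTGCC, which also counts as GGCAAC, was found in 18 of 43 member promoters (41.9%), against 10.4% of all 32851 promoters. Counted by gene, 17 of 35 members held it at 1 start or more, against 11.8% of all genes. Among the other motile cilia genes 33.3% of promoters held it, and among genes of intraflagellar transport 29.2%. The full X-box palindrome, GTTNCC and GGNAAC with 2 bases between, can contain the half-site and was found upstream of 1 member, Pifo, and in 0.374% of all promoters. The forkhead core TGTTTA was found in 6 of 43 member promoters (14.0%), against 12.03% of all promoters. The median GC content of these windows was 52.8% for members and 52.4% for all promoters. The full palindrome was searched only with the letters and the 2-base gap given above. An X-box with another gap or other letters was not counted, so the result of 1 member holds for that pattern alone. A match is a description of the letters and was not tested as a binding site.

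The 100 bases before the start are shown for 5 of the 6 members whose arrays did not overlap between the labels (Rsph9, Rfx3, Tekt1, Ccdc113 and Cdhr3), leaving out Spef2, which read near the floor. As examples of the half-site, 4 further members with a match in this window were chosen after their values were seen (Pifo, Enkur, Dynlrb2 and Lrrc23). They were not picked for nearness to the start: Hydin, Fam183b, Iqcg, Tekt2 and Mns1, not shown, also have a match within these 100 bases, the nearest at 13, 16, 19, 22 and 72 bases. They run 5′ to 3′ along the gene, with half-sites in capitals. For Tekt1 and Pifo, which have 2 starts listed, the start with a match is shown.
Rsph9: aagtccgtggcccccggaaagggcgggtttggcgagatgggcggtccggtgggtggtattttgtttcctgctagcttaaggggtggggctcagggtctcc
Rfx3: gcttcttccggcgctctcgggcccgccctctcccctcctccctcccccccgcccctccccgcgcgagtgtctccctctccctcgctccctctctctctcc
Tekt1: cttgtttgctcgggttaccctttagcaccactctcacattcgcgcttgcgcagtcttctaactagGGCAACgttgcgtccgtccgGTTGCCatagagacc
Ccdc113: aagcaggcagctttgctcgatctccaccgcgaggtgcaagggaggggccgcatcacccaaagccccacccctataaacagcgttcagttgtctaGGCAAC
Cdhr3: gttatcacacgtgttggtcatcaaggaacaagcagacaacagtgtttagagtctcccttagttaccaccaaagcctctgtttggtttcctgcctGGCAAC
Pifo: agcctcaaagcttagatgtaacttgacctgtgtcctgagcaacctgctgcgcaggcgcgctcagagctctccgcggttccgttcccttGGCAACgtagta
Enkur: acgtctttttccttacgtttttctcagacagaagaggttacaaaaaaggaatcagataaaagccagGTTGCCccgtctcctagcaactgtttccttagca
Dynlrb2: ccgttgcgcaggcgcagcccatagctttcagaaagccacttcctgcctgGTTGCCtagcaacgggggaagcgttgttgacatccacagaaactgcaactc
Lrrc23: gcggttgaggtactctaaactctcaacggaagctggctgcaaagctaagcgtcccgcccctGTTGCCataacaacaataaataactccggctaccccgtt
The windows lie at chr17:46144201-46144300, minus strand (Rsph9), chr19:28011167-28011266, minus strand (Rfx3), chr11:72361883-72361982, minus strand (Tekt1), chr8:95534000-95534099, plus strand (Ccdc113) and chr12:33092876-33092975, minus strand (Cdhr3). The others lie at chr3:106001498-106001597, minus strand (Pifo), chr2:21205366-21205465, minus strand (Enkur), chr8:116504915-116505014, plus strand (Dynlrb2) and chr6:124779728-124779827, minus strand (Lrrc23). Rsph9 and Rfx3 show no half-site in this window, Tekt1 shows 2, and the other 6 genes show 1 each. In Ccdc113 and Cdhr3 the match starts 6 bases before the gene's start.

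Among the regulators, Rfx3 read higher in every array labelled KO and the others did not separate. Of 5 measured regulators 4 read higher (median 0.36), and 2 of the 5 within station 2 (median -0.14). Foxj1, the forkhead factor that directs motile cilia formation, read 7.32, 8.16 and 8.26 log2 in WT 1 to WT 3 and 8.46, 7.64 and 8.004 in KO 1 to KO 3. The groups overlapped, with the lowest value in WT 1 and the highest in KO 1. The difference was 0.12 (SE 0.34, limma adjusted p = 0.964), with a 95% interval from -0.71 to 0.95, and -0.23 within station 2. A difference of either sign lies within this interval.

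Rfx3, an X-box factor needed for cilia growth, read 8.35, 8.34 and 8.35 in WT 1 to WT 3 and 8.60, 8.70 and 8.81 in KO 1 to KO 3. The 3 arrays labelled WT lay almost on one level, and the 3 labelled KO all lay above it. The difference was 0.36 (SE 0.11, limma adjusted p = 0.964), and 0.35 within station 2. Its second probe set read near the floor in both groups, with means of 4.39 and 4.40.

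Rfx2, a related X-box factor, read near the floor, between 4.73 and 5.06 in all 6 arrays, and showed no order between the labels (-0.14 within station 2). Myb, which acts early in multiciliated cells and also in blood precursors, read 7.50, 8.35 and 9.30 in WT 1 to WT 3 and 9.05, 8.46 and 8.79 in KO 1 to KO 3. The arrays labelled WT held both the lowest and the highest value, and the difference of 0.38 (SE 0.46, limma adjusted p = 0.964) became -0.54 within station 2. Ccno, the cyclin-like protein that helps to multiply centrioles, read 5.58, 6.57 and 6.58 in WT 1 to WT 3 and 7.21, 6.59 and 6.53 in KO 1 to KO 3. WT 1 lay below and KO 1 above the other 4 arrays, which lay between 6.53 and 6.59. Its difference was 0.54 (SE 0.36, limma adjusted p = 0.964), and 0.20 within station 2.

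The dynein arm genes overlapped between the labels in every case. Of 6 measured members 5 read higher, with a median difference of 0.19, and within station 2 none of the 6 read higher (median -0.24). Dynlrb2, a light chain of dynein motors, read 10.97, 11.29 and 12.0001 in WT 1 to WT 3 and 11.71, 11.84 and 12.44 in KO 1 to KO 3. WT 3 lay within the range of the arrays labelled KO. The difference was 0.58 (SE 0.32, limma adjusted p = 0.964), and within station 2 it was near 0, at -0.0018.

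Ttc29, which takes part in assembling axonemal dyneins, read 6.94, 7.54 and 8.33 in WT 1 to WT 3 and 8.15, 7.9995 and 8.14 in KO 1 to KO 3. The arrays labelled KO lay close together, and WT 3 lay above them. The difference was 0.49 (SE 0.36, limma adjusted p = 0.964), against -0.23 within station 2. Dnah5, a heavy chain of the outer arm, read 5.00, 5.67 and 5.98 in WT 1 to WT 3 and 5.47, 5.45 and 5.42 in KO 1 to KO 3, a difference of -0.10 (SE 0.25, limma adjusted p = 0.964). It had the lowest difference of the 38 members, at a low level, and -0.53 within station 2. The other 3 members, the outer arm genes Dnai1 and Dnah9 and the inner arm gene Dnali1, differed by 0.08, 0.04 and 0.29, each by less than its SE.

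The radial spoke and central pair genes all read higher, and Rsph9 separated the labels. All 9 members had a positive difference (median 0.34), and 2 of the 9 read higher within station 2 (median -0.19). Rsph9, a protein of the spoke head, read 7.22, 7.53 and 7.73 in WT 1 to WT 3 and 8.03, 8.36 and 8.64 in KO 1 to KO 3. No array labelled WT reached the lowest array labelled KO. The difference was 0.85 (SE 0.23, 95% interval 0.29 to 1.41), or 1.803-fold on the log2(intensity + 16) scale, and did not pass over all genes (limma adjusted p = 0.964). It was 0.61 within station 2 and ran from 0.61 to 1.006 over 20 alternatives. Rsph9 had the smallest unadjusted p of the 38 members in limma (0.0102).

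Rsph1, another protein of the spoke head, did not separate. It read 7.26, 8.57 and 9.58 in WT 1 to WT 3 and 9.54, 8.80 and 9.17 in KO 1 to KO 3, with the lowest and the highest value both among the arrays labelled WT. The difference was 0.70 (SE 0.58, limma adjusted p = 0.964), and -0.41 within station 2. Lrrc23, a radial spoke protein, followed the same course: 8.30, 8.93 and 10.11 in WT 1 to WT 3 and 9.94, 9.58 and 9.95 in KO 1 to KO 3. WT 3 lay above every array labelled KO, so the difference of 0.71 (SE 0.46, limma adjusted p = 0.964) became -0.29 within station 2. The other 6 members, among them Hydin and the Spag genes of the central pair, differed by 0.04 to 0.53. In Spef2, also of the central pair, all 3 arrays labelled KO lay above the 3 labelled WT, by 5.44 or more against 5.44 or less, which is near the floor and not a clear gap.

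The genes of the ruler and the nexin link, which space and join the doublets, went both ways. Of 3 members 2 read higher (median 0.57), and 1 of the 3 within station 2 (median -0.19). Ccdc39, which with Ccdc40 forms the ruler along each doublet, read 8.95, 7.90 and 8.88 in WT 1 to WT 3 and 8.93, 9.38 and 10.03 in KO 1 to KO 3. On this probe set WT 2 and not WT 1 was the lowest array, and WT 1 lay just above KO 1. The difference was 0.87 (SE 0.39, limma adjusted p = 0.964), and 0.57 within station 2. On a dimmer probe set WT 1 was the lowest, with 4.82, 5.06 and 4.98 in WT 1 to WT 3 and 5.09, 5.53 and 5.95 in KO 1 to KO 3. The order of the arrays thus depends on the probe set for Ccdc39. Its partner Ccdc40 read 5.34, 6.63 and 6.97 in WT 1 to WT 3 and 6.9996, 6.13 and 5.64 in KO 1 to KO 3, a difference of -0.05 (SE 0.54, limma adjusted p = 0.985), and -0.71 within station 2. KO 3, the highest array for Ccdc39, was thus the lowest array labelled KO for Ccdc40. Iqcg, a part of the nexin link, read 6.99, 6.22 and 7.74 in WT 1 to WT 3 and 7.40, 7.81 and 7.45 in KO 1 to KO 3. Its groups overlapped through WT 3, and the difference of 0.57 (SE 0.41, limma adjusted p = 0.964) became -0.19 within station 2.

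All 9 genes of the doublet microtubules read higher, with a median of 0.41, and 4 of the 9 did so within station 2 (median -0.03). Tekt1, a tektin filament protein inside the doublet, read 8.26, 8.23 and 8.47 in WT 1 to WT 3 and 8.48, 8.61 and 8.96 in KO 1 to KO 3. The groups did not overlap, but WT 3 and KO 1 lay next to each other. The difference was 0.36 (SE 0.17, 95% interval -0.05 to 0.78, limma adjusted p = 0.964), and 0.22 within station 2. Cfap126, which helps to position basal bodies, read 8.97, 9.69 and 10.36 in WT 1 to WT 3 and 10.21, 10.03 and 10.49 in KO 1 to KO 3. Only WT 3 fell within the KO range, and the difference of 0.57 (SE 0.35, limma adjusted p = 0.964) became -0.11 within station 2. Tppp3, a tubulin-binding protein, read 10.25, 10.51 and 10.94 in WT 1 to WT 3 and 10.68, 10.47 and 10.67 in KO 1 to KO 3. Its difference of 0.04 (SE 0.19, limma adjusted p = 0.966) was well within its spread, and was -0.33 within station 2.

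Enkur, Pifo and Tekt4 of the doublet group, chosen after their values were seen, had larger differences. Enkur read 7.68, 7.90 and 8.73 in WT 1 to WT 3 and 8.53, 8.80 and 9.31 in KO 1 to KO 3, a difference of 0.78 (SE 0.34). Pifo read 8.08, 8.503 and 9.19 in WT 1 to WT 3 and 9.09, 9.42 and 9.44 in KO 1 to KO 3, a difference of 0.73 (SE 0.30). Tekt4, a further tektin, read 6.16, 6.57 and 7.45 in WT 1 to WT 3 and 7.84, 7.28 and 7.64 in KO 1 to KO 3, a difference of 0.86 (SE 0.38). In each of the 3 genes WT 1 and WT 2 lay below every array labelled KO and WT 3 lay inside the KO range. None of the 3 passed (limma adjusted p = 0.964 each), and within station 2 they differed by 0.15, 0.13 and 0.13. The remaining doublet genes, Tekt2, Mns1 and Fam183b, differed by 0.32, 0.41 and 0.38, and by -0.32, -0.03 and -0.18 within station 2.

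The 6 remaining members all read higher (median 0.50), and 5 of the 6 still did so within station 2 (median 0.22). Ccdc113, a coiled-coil protein of the axoneme, read 7.14, 7.04 and 7.83 in WT 1 to WT 3 and 7.94, 8.12 and 8.55 in KO 1 to KO 3. The groups did not overlap, though WT 3 came close to KO 1. The difference was 0.86 (SE 0.29, 95% interval 0.16 to 1.57, limma adjusted p = 0.964), and 0.37 within station 2. Cdhr3, a cadherin-related protein of ciliated airway cells, read 6.35, 6.37 and 6.745 in WT 1 to WT 3 and 6.754, 6.82 and 7.36 in KO 1 to KO 3. WT 3 lay just under KO 1, so the groups did not overlap by a very small gap, and the difference was 0.49 (SE 0.25, limma adjusted p = 0.964) and 0.23 within station 2.

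Mlf1 read 8.84, 9.34 and 9.59 in WT 1 to WT 3 and 9.54, 9.73 and 9.98 in KO 1 to KO 3, a difference of 0.50 (SE 0.22, limma adjusted p = 0.964), and 0.16 within station 2. Only WT 3 overlapped the arrays labelled KO. Ak7, an adenylate kinase of the axoneme, read 7.74, 8.18 and 9.01 in WT 1 to WT 3 and 8.87, 8.48 and 9.07 in KO 1 to KO 3. Its difference of 0.50 (SE 0.35, limma adjusted p = 0.964) turned to -0.20 within station 2. Meig1, best known from sperm formation and chosen after its values were seen, had the largest difference of the 38 members, at 0.90 (SE 0.35, limma adjusted p = 0.964), and 0.20 within station 2. It read 7.04, 7.51 and 8.32 in WT 1 to WT 3 and 8.24, 8.67 and 8.66 in KO 1 to KO 3, again with only WT 3 inside the KO range. Cdhr4, the last of this group, differed by 0.35 (SE 0.48), and by 0.40 within station 2. Its WT 1 (7.03) lay above KO 1 and KO 2 (6.34 and 6.65) and below KO 3 (7.97).

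The members did not follow a single profile across the arrays labelled KO. KO 1 was the highest of these 3 arrays in 18 members, KO 3 in 17 and KO 2 in 3. KO 1 was highest in 5 of 6 dynein arm genes and 6 of 9 spoke and central pair genes, while KO 3 was highest in 6 of 9 doublet genes and 5 of 6 of the remaining group. Of the 18 members highest in KO 1, 2 read higher within station 2, and of the 17 highest in KO 3, 11 did. KO 1 and KO 3 differ in RNA composition (-1.97 and -0.66), and its part in this split was not tested. Of the 38 members, 13 kept a positive difference under every alternative in which they were measured. These were Rfx3, Ccno, Rsph9, Spef2, Ccdc39, Tekt1, Tekt4, Enkur, Pifo, Ccdc113, Mlf1, Meig1 and Cdhr3. The eBayes settings, the replicate block and the filter leave a difference unchanged, so they could not turn its sign. The count lies close to the 14 members that read higher within station 2, against the single array WT 3. The share of all genes that stayed positive was not counted.

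For 12 members more than 1 probe set was measured. All 19 probe sets beside the ones used also read higher in the arrays labelled KO, but 13 of them had both group means under 5 log2, near the floor. The signs within a gene disagreed in 1 of the 12, Rfx2, which read near the floor throughout.

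**Figure D4:**
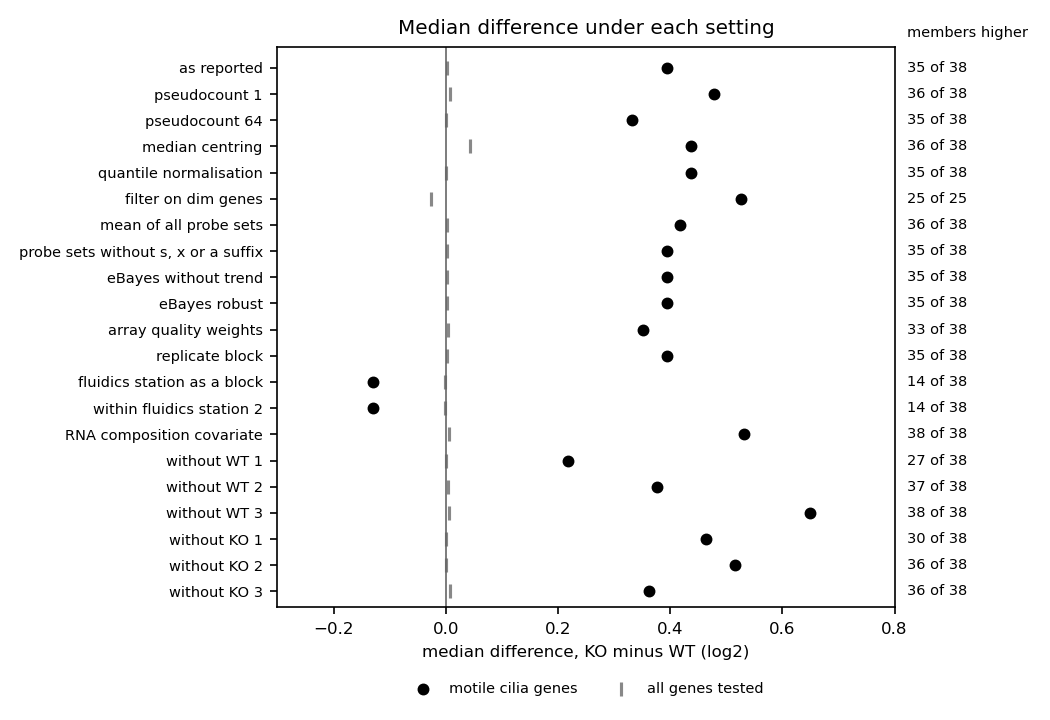
Median log2 difference of the motile cilia genes (black points) and of all genes tested (grey marks) as reported and under each of the 20 alternatives, with the number of members that read higher. The medians lie between 0.22 and 0.65, except with fluidics station as a block and within station 2, where both lie at -0.13.

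Further genes of motile cilia, from another list, ran in the same way across the same 6 arrays. That list was chosen with earlier results of these data known, so it is no independent check of the members. Of 94 listed genes 78 were measured, 67 of them higher and 11 lower (median 0.29), and within station 2 30 read higher (median -0.08). Over all genes 58.4% read higher, and 42.3% within station 2. None passed over all genes in limma, and at an unadjusted p under 0.05 7 read higher and 1 lower. Of all genes, 2.00% read higher at that level and 4.58% differed in either direction. The median gene deviated from its own mean by -0.49, -0.18 and 0.28 in WT 1 to WT 3 and by 0.18, 0.01 and 0.15 in KO 1 to KO 3. Cfap221 of the central pair had the smallest p, with a difference of 0.17 (SE 0.02, limma adjusted p = 0.4996) at means of 4.54 and 4.71, near the floor, and 0.13 within station 2. Tekt5, a tektin best known from sperm, went the other way. It read 6.43, 6.21 and 6.37 in WT 1 to WT 3 and 5.10, 5.77 and 5.11 in KO 1 to KO 3, lower in every array labelled KO (-1.01, SE 0.21, limma adjusted p = 0.832), and -1.05 within station 2. Cfap20 and Ccdc153 differed by 0.11 (SE 0.08) and 0.50 (SE 0.41), and by 0.06 and -0.20 within station 2.

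Genes that motile cilia share with the primary cilia of most cells showed smaller differences. The shares of all genes that read higher were 58.4%, and 42.3% within station 2. For intraflagellar transport, which carries cargo along the axoneme, 23 of 28 read higher (median 0.20), and 11 of 28 within station 2 (median -0.02). For the BBSome and the transition zone, which sort and gate ciliary proteins, 21 of 24 read higher (median 0.14), and 12 of 24 within station 2 (median -0.004). A mixed list linked to multiciliation, with E2f4, Plk4 and Deup1 but also cell cycle genes such as Cdk1 and Gmnn, did not share the direction. Of its 19 measured genes 7 read higher and 12 lower (median -0.02), and 4 of 19 read higher within station 2 (median -0.23). The 2 brightest, Cdk1 and Tfdp1, differed by -0.22 (SE 0.21) and -0.17 (SE 0.18). Cep78 and Gmnn, with the smallest p, differed by -0.91 (SE 0.38) and -0.34 (SE 0.15). The list is thus not a reading of multiciliated cells alone. None of these genes passed over all genes in limma, and none had an unadjusted p under 0.05. Whether the members differ from these lists was not tested.

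Markers of other cell types also differed between arrays. The counts below stand beside 58.4% of all genes that read higher, and 42.3% within station 2. Of 13 markers of club and secretory cells, the other main cells of the airway lining, 8 read higher (median 0.41), and their mean level was 9.78 in WT 1 against 10.65 to 10.87 in the other 5 arrays. Scgb3a2 differed by 0.24 (SE 0.13), Cyp2f2 by 1.36 (SE 0.59), Hp by 0.56 (SE 0.31) and Scgb1a1 by -0.42 (SE 0.30), and none passed in limma. Within station 2 these 4 genes differed by 0.11, 0.63, 0.27 and -0.33, and 7 of the 13 markers read higher (median 0.09). WT 1 was thus the lowest array for the airway markers as it was for most cilia genes. All 10 alveolar type I markers read lower (median -0.87), with a mean level of 10.62 in KO 1 and 11.56 in KO 3 against 12.01 to 12.78 in the other 4 arrays. Within station 2 the type I median was -0.30, with 3 of 10 higher. Of 8 alveolar type II markers 6 read lower (median -0.44; mean levels 12.88 to 13.50 in the arrays labelled WT and 12.29 to 13.36 in those labelled KO), and 5 of 8 within station 2 (median -0.24). All 8 endothelial markers read lower (median -0.69; 9.43 to 10.30 and 9.13 to 9.68), and all 8 did so within station 2 (median -0.68). Of 10 mesenchymal markers 4 read higher (median -0.03; 11.50 to 11.64 and 11.41 to 11.91), and 5 of 10 within station 2 (median -0.02). Of 6 mesothelial markers 2 read higher (median -0.20; 9.83 to 10.55 and 9.55 to 10.75). This direction turned within station 2, where all 6 read higher (median 0.23). The 5 basal cell markers read near the floor in both groups (mean levels 4.48 to 4.59), and 6 of 7 neuroendocrine markers read below 6.88 in both. The part of any of these in the cilia gene result was not tested.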

How the data were processed

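Linear probe set intensities of 6 Affymetrix arrays were used as deposited. GCRMA and MAS5 appear in the submitters' processing notes without version, role or order, so how the authors made these intensities is not given in the sources used here. The experiment files gave fluidics station and scan order, and the authors deposited no expression values in them (other). Of 45101 probe sets, 64 are controls, 932 name several genes, 9160 have no gene name here and 34945 name 1 gene (34741 through a current gene ID of GRCm38.p6, used for names). Intensities were taken to log2 after adding 16, with no further scaling or filter, so differences of dim genes are understated.

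KO minus WT was fitted with limma 3.58.1 in R 4.3.3 (lmFit, eBayes with trend), as a two-sided test. P-values were adjusted by Benjamini-Hochberg across the 18193 genes, and 0.05 was the threshold. Errors on differences are standard errors of that fit. The number of arrays limits precision. The script was tested on simulated data, with changes set in genes whose WT mean lay above 6.88 log2. It recovered 29 of 100 changes of 1 log2 and 75 of 100 changes of 2 log2. The largest member difference, 0.90, was below 1 log2, so most differences of that size would be missed. The members and lists were chosen with earlier results of these data known. All arrays are described for the regulators, for bright members whose groups do not overlap, for 2 bright members per role and for negative differences. Bright means a group mean above the median of the gene means. Lists of other cell types and shared cilia genes are mostly given as counts. Replicate numbers were not taken as pairs: same-numbered arrays had residual correlations of -0.613, 0.0971 and -0.311. The alternatives covered pseudocount, scaling, filter, probe set choice, eBayes settings, array weights, blocks, composition and leaving out each array.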

Additional observations from a re-analysis of the deposited data

How the results depend on the processing

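No member passed an adjusted p of 0.05 in limma under any of the 20 alternatives. At an unadjusted p under 0.05, fits with more than 1 WT array gave from 0 to 16 members (5 as reported, against 4.58% of all genes). The 16 came without WT 3, where 885 of 18193 genes passed that level. The 0 came with fluidics station as a block, where 586 genes did. Over these fits on all 18193 genes the count ran from 424 to 1696. The number of genes called over all was 1 as reported, 17 with median centring, 32 with fluidics station as a block, 10 within station 2, and 0 with quantile normalisation, eBayes without trend, the replicate block and the RNA composition covariate. Leaving out 1 array gave 0 to 1. With the replicate block, which changed no call on a member, 35 of 38 members read higher and the median was 0.40, and the numbers were not found to pair the arrays. Of the alternatives, fluidics station turned the sign of the members' median. As a block and within station 2, 14 of 38 members read higher, against 42.3% of all genes, and the median was -0.13. Named genes that turned sign there were Foxj1 (-0.23), Myb (-0.54), Dynlrb2 (-0.0018), Ttc29 (-0.23), Lrrc23 (-0.29), Rsph1 (-0.41), Iqcg (-0.19), Tppp3 (-0.33), Cfap126 (-0.11), Ak7 (-0.20) and Ccdc153 (-0.20). Foxj1 also turned with array quality weights (-0.11). Rfx2 turned with a pseudocount of 1 (0.014), median centring (0.041), the mean of all probe sets (0.029) and the composition covariate (0.040), with which Dnah5 (0.012) and Ccdc40 (0.30) turned too. Leaving out 1 array moved the median from 0.22 (without WT 1) to 0.65 (without WT 3) and the number of higher members from 27 to 38. It also turned Foxj1 (-0.18 to 0.32), Rfx2 (-0.098 to 0.071), Myb (-0.058 to 0.84), Tppp3 (-0.12 to 0.23), Dnah5 (-0.38 to 0.11) and Ccdc40 (-0.54 to 0.27). Why these values moved was not tested, and the cause was not tested for the gene counts either. With 3 arrays a group and station 1 holding only arrays labelled WT, a difference between the labels cannot be told apart from one between stations except through WT 3.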
